A study of Homo sapiens with 10 samples.

Results

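Oxidative phosphorylation genes were followed here as the transcript clusters, the units that the array assigns to a gene, whose single symbol names a subunit of complex I to IV of the respiratory chain or of the ATP synthase. They were taken by symbol alone, with no measured value: those starting with NDUFA, NDUFB, NDUFC, NDUFS, NDUFV, UQCR, COX4, COX5, COX6, COX7, COX8, ATP5F, ATP5M or ATP5P, and the SDH subunits and CYC1. This gave 97 clusters of 89 genes, out of 20961 clusters with a gene symbol and 28869 in all, and the cluster with the highest mean over all arrays stood for each gene. For 8 genes this meant choosing between clusters, which were not placed on the genome. Whether the brighter one lies on the gene or on a copy elsewhere was not determined. Of the 89 genes, 79 are subunits: 34 of complex I (6 core, 28 accessory), 3 of complex II, 8 of complex III, 17 of complex IV and 17 of complex V, the ATP synthase. The prefix NDUFA also took 7 NDUFAF genes, whose products help to assemble complex I and are not part of it, and 3 other transcripts carried a matching symbol (ATP5F1EP2, NDUFV1-DT and UQCRBP1). A further 9 clusters that join a matching symbol with other symbols were not used, and the 13 subunits encoded by mitochondrial DNA were not analysed here.

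The cells were Panc1, an established epithelial line from a human pancreatic carcinoma, transduced for 48 h at a multiplicity of infection of 150 with adenovirus carrying no insert (empty vector, EV), wild type KLF11 or 1 of 3 KLF11 mutants. KLF11 is a zinc finger transcription factor of GC-rich promoters, and the mutants were designed to uncouple it from 1 cofactor system each: EAPP from the Sin3 and histone deacetylase complex, A347S from WD40 proteins, and Δ486 from HP1 and its histone methyltransferases. All groups, the controls included, therefore carried adenovirus, and the cells kept their own KLF11. RNA was hybridized to 10 Human Gene 1.0 ST arrays, 2 for each of the 5 groups, which the methods and the extract protocol describe as technical duplicates of RNA pooled from 3 cultures and which the titles number as biological replicates. If they are technical, errors and p-values measure the spread between arrays and leave out the spread between cultures.

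The respiratory chain lies in the inner mitochondrial membrane. Complex I takes electrons from NADH and complex II from succinate, ubiquinone carries them to complex III and cytochrome c to complex IV, where oxygen is reduced. Complexes I, III and IV pump protons, and complex V uses the return of these protons to make ATP. Nearly all subunits come from nuclear genes, and in many cell types they are transcribed together under factors such as NRF1 and the ETS factor GABP.

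Values are log2 expression after Robust Multiarray Analysis by the authors, and differences are log2 differences from a limma fit over all 10 arrays and all 20961 clusters. Rose and fell are used for members with a limma p under 0.05 after Benjamini-Hochberg adjustment, and called for those that in addition differed at least 1.5-fold. Array medians lay between 6.81 and 6.87. The transduced gene, KLF11, read 8.37 and 7.75 with EV and 8.82 and 8.85 with wild type, while the arrays gave 8.85 and 8.88 for A347S, 8.72 and 8.83 for Δ486 and 8.78 and 8.68 for EAPP. It was higher on all 8 arrays with a construct than on both EV arrays, but with EAPP its limma adjusted p was 0.282. Of the 5 epithelial markers, KRT8 read 12.18 to 12.71, KRT18 12.81 to 13.25, KRT19 9.29 to 10.91, EPCAM 8.32 to 8.78 and CDH1 4.71 to 5.12. The keratins moved with the constructs: KRT19 fell with KLF11, A347S and Δ486 (-0.99, -1.51 and -1.06, limma adjusted p = 0.00124, 6.1e-05 and 0.000601), KRT8 fell by 0.43 and 0.33 and KRT18 by 0.25 and 0.35 with A347S and Δ486, and EPCAM and CDH1 did not pass. Their part in the members' values was not tested. Of the fibroblast markers, COL1A1 read 7.94 to 8.31 and fell with A347S (-0.34, adjusted p = 0.00422), and COL3A1 read 6.24 to 6.61, LUM 3.25 to 3.73 and DCN 3.85 to 4.11. Of the leukocyte markers, PTPRC read 3.44 to 3.75, CD3E 4.80 to 5.09 and CD68 9.54 to 9.77. The 6 acinar and islet markers measured lay between 3.16 and 6.58.

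NDUFA5, NDUFAF4, NDUFAF7 and SDHD rose with KLF11, A347S and Δ486, and their upstream sequences are shown first, next to that of ATP5F1C, a catalytic core subunit of complex V that did not pass the test with any construct. Each line gives the 250 bases before the transcription start in RefSeq (GRCh38.p14), with CCCCGC and CCCCAC, the letters of the study's KLF11 consensus, and GCATGCGC, part of the palindrome bound by NRF1, in capitals on whichever strand they lie. The positions are chr7:123601652-123601901 on the minus strand for NDUFA5, chr6:96897892-96898141 on the minus strand for NDUFAF4, chr2:37231408-37231657 on the plus strand for NDUFAF7, chr11:112086623-112086872 on the plus strand for SDHD and chr10:7787927-7788176 on the plus strand for ATP5F1C.
NDUFA5: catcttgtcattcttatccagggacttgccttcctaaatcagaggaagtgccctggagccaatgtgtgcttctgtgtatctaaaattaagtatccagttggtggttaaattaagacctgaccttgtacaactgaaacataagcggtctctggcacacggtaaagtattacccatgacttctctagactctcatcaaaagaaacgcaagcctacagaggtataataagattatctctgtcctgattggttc
NDUFAF4: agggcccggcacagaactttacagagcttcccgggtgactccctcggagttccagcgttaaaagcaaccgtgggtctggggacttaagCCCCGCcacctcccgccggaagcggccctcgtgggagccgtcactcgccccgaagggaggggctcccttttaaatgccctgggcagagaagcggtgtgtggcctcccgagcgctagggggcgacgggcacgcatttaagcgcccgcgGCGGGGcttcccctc
NDUFAF7: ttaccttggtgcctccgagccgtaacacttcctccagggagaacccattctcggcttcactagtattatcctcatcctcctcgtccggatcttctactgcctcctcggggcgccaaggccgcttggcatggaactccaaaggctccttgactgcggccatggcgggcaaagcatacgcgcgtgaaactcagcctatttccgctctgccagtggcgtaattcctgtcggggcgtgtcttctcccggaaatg
SDHD: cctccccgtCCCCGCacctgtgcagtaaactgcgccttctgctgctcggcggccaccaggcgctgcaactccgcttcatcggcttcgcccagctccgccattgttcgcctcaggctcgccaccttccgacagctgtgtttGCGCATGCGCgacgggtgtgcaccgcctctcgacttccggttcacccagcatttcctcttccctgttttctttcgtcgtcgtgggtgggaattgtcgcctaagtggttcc
ATP5F1C: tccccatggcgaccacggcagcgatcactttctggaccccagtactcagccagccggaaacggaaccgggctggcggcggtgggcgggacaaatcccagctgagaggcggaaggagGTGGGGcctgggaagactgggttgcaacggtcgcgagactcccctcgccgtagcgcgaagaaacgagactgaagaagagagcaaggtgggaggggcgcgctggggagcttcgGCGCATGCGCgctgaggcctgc

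NDUFA5 and NDUFAF7, the members that rose most with each of the 3, showed none of these letters in this window, NDUFAF4 showed CCCCGC in 2 places and SDHD in 1. The other members that rose with all 3 constructs are not printed. Of these, NDUFA8 and NDUFV1 held CCCCGC and CCCCAC in 1 place each, and COX4I1 held none of the letters. ATP5F1A, which did not pass with any construct, held CCCCGC in 2 places. SDHD, which rose, and ATP5F1C, which did not pass the test, each held GCATGCGC on both strands, in overlapping letters. In the 300-base window described below, NDUFA8 and NDUFAF4, which rose with all 3 constructs, held GCATGCGC as well. A promoter entry was found for 73 of the 89 members. In the 300 bases from 250 before to 50 after the start, CCCCGC or CCCCAC stood in 65.8% of the members' promoters and in 56.4% of the 27305 promoters of the table. Among the 15 members with an entry that rose with KLF11, A347S or Δ486 the share was 53.3%, and among the 55 that passed the test with none of them it was 70.9%. The NRF1 letters GCATGCGC stood in 19.2% of members against 3.27% of all promoters, and the ETS letters CCGGAAG in 27.4% against 10.7%. Among the same 15 members that rose, GCATGCGC stood in 26.7% and CCGGAAG in 33.3%. Among the 55 that passed with none, these shares were 18.2% and 27.3%. CCAAT stood in 35.6% of members and in 35.7% of all promoters. All letters were searched on both strands. CCCCGC and CCCCAC can overlap. These shares describe letters in a window and say nothing of binding.

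With wild type KLF11, 10 of the 89 members rose and none fell. The share that rose, 11.2%, stood beside 7.56% of all clusters tested, while 9.75% of all clusters fell. Only NDUFA5 was called, where 3.99% of all clusters were. At an unadjusted p under 0.05, 28 members were higher and 0 lower, against 12.5% and 16.9% of all clusters. The median difference of the members was 0.12 and that of all clusters -0.02, and 80.9% of members but 45.5% of all clusters had a difference above 0. The KLF11 arrays lay above both EV arrays for 48 members and below both for 5, where 24.9% and 32.7% of all clusters did so.

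The arrays within EV and KLF11 differed over the members as a body. Replicate 1 read above replicate 2 for 71 of 89 members with EV (79.8%, against 53% of all clusters) and for 75 with KLF11 (84.3%, against 51.7%). With A347S it did so for 35, with Δ486 for 40 and with EAPP for 46. Without EV replicate 2 or without KLF11 replicate 1, 4 members rose with KLF11 and the median was 0.07. Without EV replicate 1 the count was 7, 3 members were called and the median was 0.14. The part of this array difference in the results was not tested beyond these fits.

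With A347S, 15 members rose and 4 fell, and 2, NDUFA5 and NDUFAF7, were called. The share of members that rose was 16.9%, against 11.5% of all clusters, and the share that fell was 4.49%, against 16.9%. Of all clusters 8.98% were called. At an unadjusted p under 0.05, 28 members were higher and 5 lower, against 16.4% and 21.1% of all clusters. The median was 0.11, against 0.01 for all clusters. Rescaling the arrays moved the split: 25 rose and 1 fell after cyclic loess, 25 and 2 after quantile scaling, and 10 and 5 after centring each array on its median. Without A347S replicate 2, 6 rose and 0 fell, without A347S replicate 1, 9 and 1, without EV replicate 1, 7 and 1, and without EV replicate 2, 8 and 1, when only NDUFA5 was called.

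With Δ486, 11 members rose and 1 fell, and NDUFA5 was called, against 9.07% of all clusters that rose, 13.3% that fell and 5.61% that were called. At an unadjusted p under 0.05, 25 members were higher and 2 lower, against 15.5% and 18.8% of all clusters. The median was 0.08 (all clusters 0.02), and after median centring it was 0.01 (all clusters -0.05) and 5 members rose. Cyclic loess gave 22 that rose and quantile scaling 23, each with 1 that fell. Without EV replicate 2, 5 rose and 0 fell, without EV replicate 1, 7 and 1 with a median of 0.16, without Δ486 replicate 1, 7 and 0, and without Δ486 replicate 2, 6 and 1. Called members numbered 3 without Δ486 replicate 1 and 2 without Δ486 replicate 2 or EV replicate 1. The fall was lost in the first fit, and 2 members fell when either EAPP array was left out.

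With EAPP, 0 members passed the test by limma with Benjamini-Hochberg adjustment, and 1 of the 20961 clusters did (0.00477%). At an unadjusted p under 0.05, 2 members were lower, COX6A1 and NDUFS4, and 0 were higher, where 3.5% of all clusters were higher and 5.22% lower. The plain test of 2 arrays against 2 also gave 0, with 1 member higher and 1 lower at an unadjusted p under 0.05. The median was -0.01, and 41 members stood above 0 and 48 below. The 95% intervals of the EAPP differences reached from -0.56 to 0.48 over all members, at most a 1.48-fold change. Each interval holds for 1 member alone, so some true values may lie outside theirs. If the arrays are technical duplicates, they also leave out the spread between cultures. The 4 comparisons share the EV arrays, so their values are given side by side and the likeness of KLF11, A347S and Δ486 is no separate evidence.

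**Figure D1:**
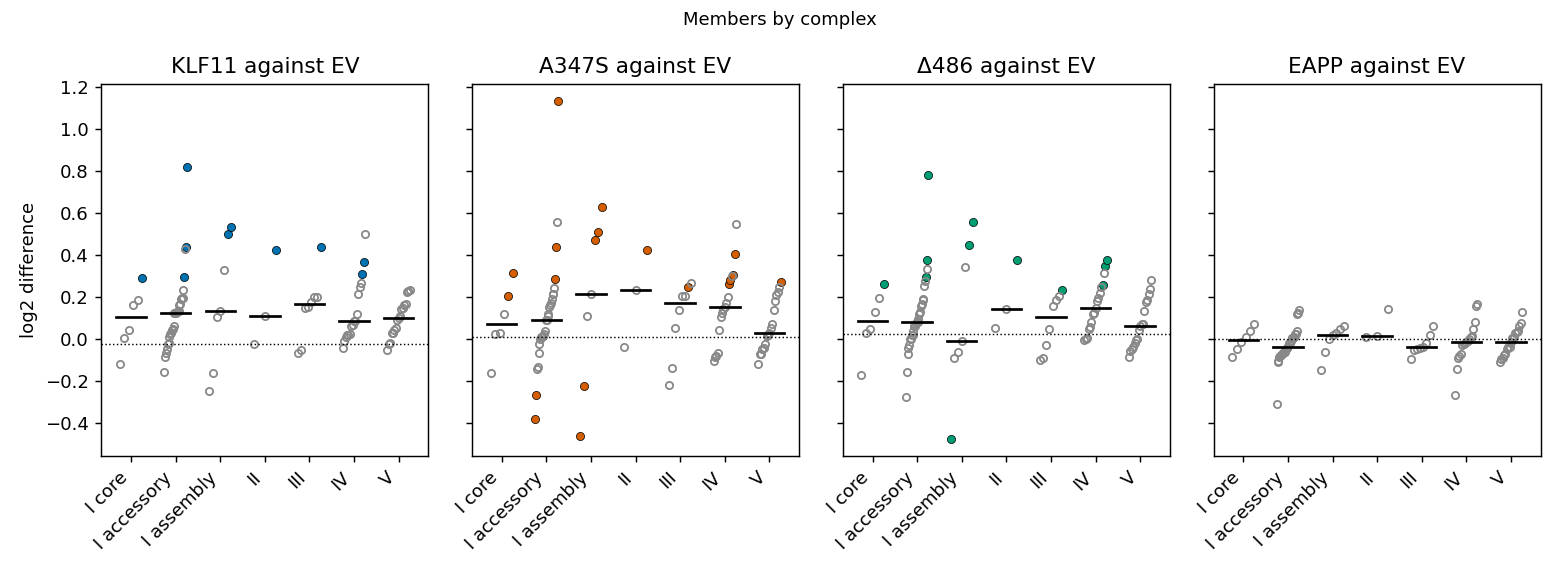
Log2 difference of each member from EV (vertical axis) by complex, for KLF11, A347S, Δ486 and EAPP. Filled points passed an adjusted p under 0.05, open points did not, the bar is the median of the group and the dotted line the median of all 20961 clusters. NDUFA5 stands highest in the accessory subunits of complex I at 0.82, 1.13 and 0.78, 1 complex V member is filled with A347S and none with KLF11 or Δ486, and no EAPP point is filled.

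In total 22 members passed the test with at least 1 of KLF11, A347S and Δ486, of which 18 rose and 4 fell, and 67 passed with none. The 7 that rose with all 3 were NDUFV1, NDUFA5, NDUFA8, NDUFAF4, NDUFAF7, SDHD and COX4I1. Passing with at least 1 construct was seen for 24.7% of members and 31.5% of all clusters, and a rise with all 3 for 7.87% of members and 6.09% of all clusters. Of the 7, 5 belong to complex I or its assembly, as do 41 of the 89 members (46.1%).

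The accessory subunit NDUFA5 gave the highest differences. It is part of the peripheral arm of complex I. Its level was 9.66 and 9.55 with EV, 10.44 and 10.41 with KLF11, 10.66 and 10.82 for A347S, 10.24 and 10.53 for Δ486, and 9.82 and 9.66 for EAPP. The 6 arrays with KLF11, A347S or Δ486 lay above all EV and EAPP arrays, and the EAPP arrays overlapped those with EV. The rise was 0.82 with KLF11 (1.77-fold, SE 0.109, limma adjusted p = 0.00127), 1.13 with A347S (2.20-fold, adjusted p = 9.41e-05) and 0.78 with Δ486 (1.72-fold, adjusted p = 0.00107). With EAPP the difference was 0.14, with a 95% interval of -0.11 to 0.38.

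NDUFA8, an accessory subunit on the intermembrane space side, read 9.25 and 9.32 with EV, 9.75 and 9.70 with KLF11, 9.70 and 9.75 for A347S, 9.60 and 9.72 for Δ486, and 9.42 and 9.39 for EAPP. The groups with KLF11, A347S and Δ486 did not overlap EV, and those with EAPP lay between. NDUFA8 rose by 0.44 with KLF11 (1.36-fold, limma adjusted p = 0.00383), 0.44 with A347S (adjusted p = 0.00164) and 0.38 with Δ486 (adjusted p = 0.00558). Leaving out EV replicate 1 put Δ486 at 0.34 with an adjusted p of 0.0511.

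Among the 6 core subunits, which include those that hold the flavin and the iron-sulphur clusters, NDUFV1 rose with each of the 3 constructs. This NADH-binding flavoprotein read 10.74 and 10.77 with EV, 11.08 and 11.00 with KLF11, 11.07 and 11.06 for A347S, 11.01 and 11.02 for Δ486, and 10.72 and 10.76 for EAPP. The 6 arrays with KLF11, A347S or Δ486 lay above the 4 others. The rises were 0.29 (limma adjusted p = 0.0171), 0.31 (adjusted p = 0.00668) and 0.26 (adjusted p = 0.022). They were sensitive to single arrays: with KLF11 it no longer passed without EV replicate 1 (adjusted p = 0.11), EV replicate 2 (0.0736) or KLF11 replicate 1 (0.123), with A347S without EV replicate 1 (0.052), and with Δ486 without any of the EV or Δ486 arrays (0.073 to 0.122).

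NDUFS3, another core subunit, rose with A347S (0.21, limma adjusted p = 0.048) and stood at 0.19 with KLF11 and 0.20 with Δ486. It no longer passed with each of the 10 arrays left out in turn, at an adjusted p of up to 0.212. The other core members did not pass with any construct: NDUFS1 at 0.04, 0.02 and 0.05 with KLF11, A347S and Δ486, NDUFS7 at 0.16, 0.12 and 0.13, NDUFS8 at 0.01, 0.03 and 0.03, and NDUFV2 at -0.12, -0.16 and -0.17. NDUFV2 has a second cluster of nearly equal brightness, which stood at -0.13, -0.17 and -0.20.

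Of the 28 accessory subunits, 3 rose with KLF11, 3 with A347S and 3 with Δ486 (10.7% each), and 2 fell with A347S (7.14%). NDUFA5 and NDUFA8 were among the 3 each time, and the third differed. Of all clusters 7.56%, 11.5% and 9.07% rose with these constructs, and 16.9% fell with A347S. NDUFB8 read 11.00 and 11.08 with EV and from 11.22 to 11.36 on the 6 arrays with KLF11, A347S or Δ486, and rose by 0.29 with A347S and 0.29 with Δ486 (limma adjusted p = 0.0118 and 0.0139). With KLF11 it stood at 0.19 (adjusted p = 0.0935). It no longer passed with A347S without EV replicate 1 or A347S replicate 2 (adjusted p = 0.0958 and 0.0726), and with Δ486 without EV replicate 1 or either Δ486 array (0.0534 to 0.108). NDUFB9 rose with KLF11 alone (0.30, adjusted p = 0.0395) and stood at 0.25 with A347S and 0.19 with Δ486. Set against KLF11, these mutants were at -0.05 and -0.11 (adjusted p = 0.819 and 0.654). It still passed with 1 of the 10 arrays left out and not with the 9 others, at an adjusted p of up to 0.264.

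The 2 accessory subunits that fell with A347S were NDUFS4 and NDUFC1. NDUFS4 read 8.35 and 8.29 with EV, 8.33 and 8.15 with KLF11, 7.97 and 7.91 for A347S, 8.09 and 8.01 for Δ486, and 8.19 and 7.84 for EAPP, and every array with a mutant lay below both EV arrays. Its difference was -0.38 with A347S (limma adjusted p = 0.0331), -0.27 with Δ486 (adjusted p = 0.125) and -0.31 with EAPP (adjusted p = 0.491). The dimmer of its clusters did not pass with any construct, and without 1 of the EV or A347S arrays the adjusted p was 0.0884 to 0.148. NDUFC1 stood at -0.15, -0.27 and -0.16 with KLF11, A347S and Δ486, and passed with A347S alone (adjusted p = 0.0242). NDUFC1, and NDUFB6 below, are named after their values were seen.

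The remaining 22 accessory subunits passed with none of the constructs. NDUFB6 had the highest difference among them, 0.43 with KLF11, 0.56 with A347S and 0.33 with Δ486, but its arrays spread from 8.61 to 8.92 with KLF11 and from 8.10 to 8.62 with EAPP. NDUFB7 stood at 0.13, 0.12 and 0.19 with the 3 constructs and at 0.12 with EAPP. Over all 34 complex I subunits the median difference was 0.13 with KLF11, 0.09 with A347S, 0.08 with Δ486 and -0.02 with EAPP.

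**Figure D2:**
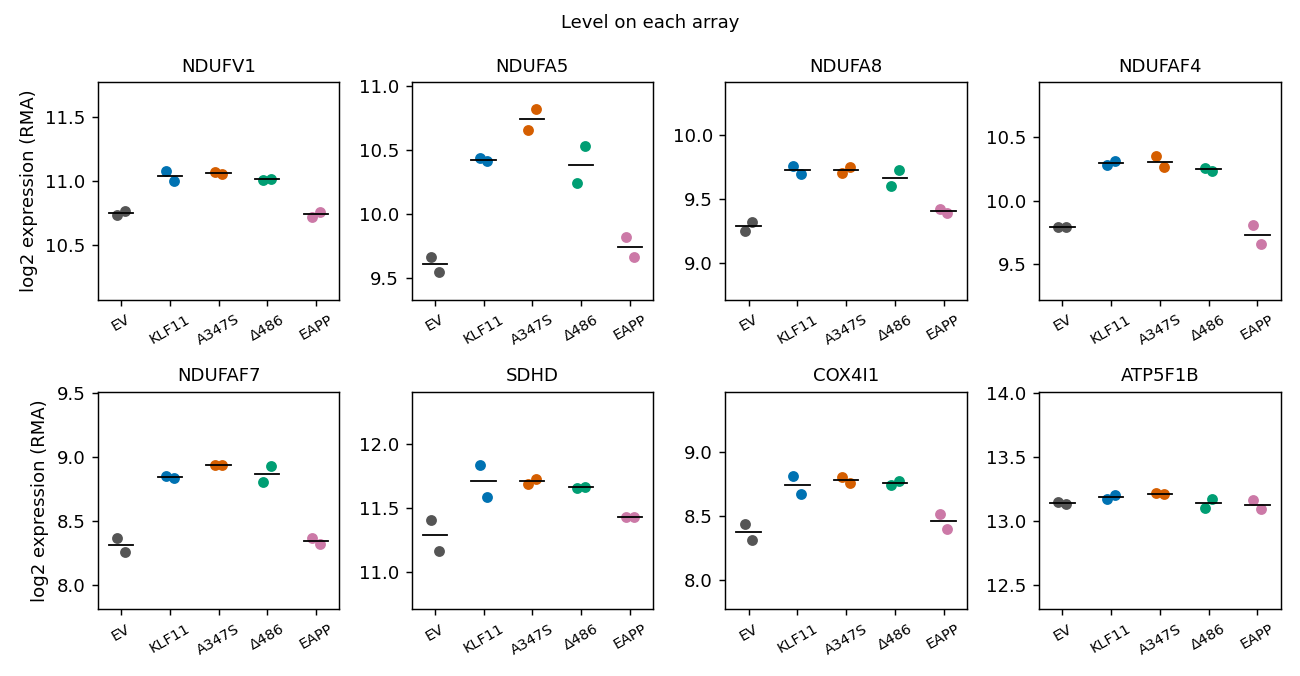
Level (log2 expression) on each array for NDUFV1, NDUFA5, NDUFA8, NDUFAF4, NDUFAF7, SDHD, COX4I1 and ATP5F1B. Points are arrays, bars are means of 2, and each panel spans the same range of log2 units. The first 7 genes were chosen by their rise with KLF11, A347S and Δ486, and their arrays with these constructs lie above those with EV and EAPP. ATP5F1B stays between 13.09 and 13.22 in all groups.

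The NDUFAF assembly factors moved in both directions. NDUFAF4, which takes part in early assembly, read 9.80 and 9.79 with EV, 10.28 and 10.31 with KLF11, 10.35 and 10.26 for A347S, 10.26 and 10.23 for Δ486, and 9.81 and 9.66 for EAPP. It rose by 0.50, 0.51 and 0.45 (1.41-, 1.42- and 1.37-fold, limma adjusted p = 0.00243, 0.000855 and 0.0027). NDUFAF7, a methyltransferase that modifies a core subunit, read 8.36 and 8.25 with EV, 8.85 and 8.84 with KLF11, 8.93 and 8.94 for A347S, 8.80 and 8.93 for Δ486, and 8.36 and 8.32 for EAPP. For both genes the arrays with KLF11, A347S and Δ486 stood clear of the rest. NDUFAF7 rose by 0.53, 0.63 and 0.56 (1.45-, 1.54- and 1.47-fold, limma adjusted p = 0.00173, 0.000275 and 0.000939). Both still had an adjusted p under 0.05 with each array left out in turn, as did NDUFA5. NDUFAF7, which was called with A347S alone, stood at 0.57 there without EV replicate 2, under 1.5-fold. Their differences with EAPP were -0.06 and 0.03.

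NDUFAF2 rose with A347S (0.47, limma adjusted p = 0.00989) and stood at 0.33 with KLF11 and 0.34 with Δ486 (adjusted p = 0.0713 and 0.0534). Its dimmer cluster gave 0.22, 0.45 and 0.40 and passed with A347S and Δ486 (adjusted p = 0.00332 and 0.00841). The brighter cluster no longer passed without EV replicate 1 or A347S replicate 2 (adjusted p = 0.0585 and 0.0723). NDUFAF6 went the other way: it read 6.97 and 7.17 with EV, 6.80 and 6.84 with KLF11, 6.66 and 6.56 for A347S, 6.39 and 6.81 for Δ486, and 6.98 and 6.87 for EAPP. Its difference was -0.46 with A347S and -0.47 with Δ486 (adjusted p = 0.0232 and 0.0257) and stood at -0.25 with KLF11 (adjusted p = 0.246). Its Δ486 arrays stood far apart. Without Δ486 replicate 1 that difference was -0.26 (adjusted p = 0.151), without EV replicate 2 -0.38 (0.158), and with A347S the adjusted p reached 0.0565 to 0.151 without EV replicate 2 or either A347S array. NDUFAF3 fell with A347S (-0.22, adjusted p = 0.0437), and still passed with 2 of 10 arrays left out but not after cyclic loess or quantile scaling. NDUFAF1 and NDUFAF5 did not pass, at 0.14 and 0.10 with KLF11.

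In complex II, which is also the succinate dehydrogenase of the tricarboxylic acid cycle, SDHD rose and the other 2 members measured did not. SDHD, a subunit that anchors the enzyme in the membrane, read 11.40 and 11.16 with EV, 11.84 and 11.58 with KLF11, 11.69 and 11.72 for A347S, 11.65 and 11.67 for Δ486, and 11.43 and 11.43 for EAPP. All arrays with a construct lay above both EV arrays, which stood apart from each other. SDHD rose by 0.43, 0.42 and 0.37 with KLF11, A347S and Δ486 (1.34-, 1.34- and 1.30-fold, limma adjusted p = 0.019, 0.0119 and 0.0268), and stood at 0.14 with EAPP (95% interval -0.09 to 0.37). Without EV replicate 2 the differences were 0.31, 0.30 and 0.25 and none passed (adjusted p = 0.142, 0.103 and 0.19). It also missed the threshold with KLF11 without KLF11 replicate 1 (0.145), with A347S without A347S replicate 2 (0.0697) and with Δ486 without either Δ486 array (0.0866 and 0.0914). The dimmer SDHD cluster rose by 0.29, 0.37 and 0.39 (adjusted p = 0.0452, 0.00894 and 0.01). Which of the SDHD clusters lies on the SDHD gene itself was not determined. SDHC, the other anchor, stood at 0.11, 0.24 and 0.14, with an adjusted p of 0.0511 with A347S, and SDHA, the flavoprotein, stood at -0.02, -0.03 and 0.05, between 11.02 and 11.13 on all arrays.

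Complex III had 1 of 8 members past the test with each of KLF11, A347S and Δ486, and each was a rise. That share, 12.5%, stood beside 7.56%, 11.5% and 9.07% of all clusters that rose. UQCRC2, a core protein of the matrix side, read 11.84 and 11.82 with EV, 12.03 and 11.98 with KLF11, 12.08 and 12.07 with A347S, and 12.03 and 12.10 with Δ486. It rose with A347S (0.25, limma adjusted p = 0.0202) and Δ486 (0.24, adjusted p = 0.0325) and stood at 0.18 with KLF11 (adjusted p = 0.104). With A347S it missed the threshold without any of the EV or A347S arrays (adjusted p = 0.0718 to 0.105), and with Δ486 without any of the EV or Δ486 arrays (0.0621 to 0.145). UQCRB, which binds ubiquinone, rose with KLF11 (0.44, adjusted p = 0.0435), but the EV arrays of this dim cluster stood apart at 5.99 and 5.58, beside 6.28 and 6.17 with KLF11. It still passed with 1 of 10 arrays left out, and without EV replicate 2 the difference was 0.23 (adjusted p = 0.27). The pseudogene UQCRBP1, which resembles it in sequence, stood at 0.27, 0.35 and 0.38 and did not pass, and signal shared between such copies cannot be told apart on the array.

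The other members of complex III did not pass. UQCRC1 stood at 0.15, 0.14 and 0.20 with KLF11, A347S and Δ486, UQCRH, the hinge protein, at 0.15, 0.20 and 0.16, UQCRQ at 0.20, 0.21 and 0.19, and UQCR11 at 0.20, 0.05 and -0.03. Cytochrome c1, the product of CYC1, was on the other side of 0, at -0.06, -0.22 and -0.10 (adjusted p = 0.0538 with A347S). The median of the 8 members was 0.17 with KLF11 and A347S, 0.11 with Δ486 and -0.04 with EAPP.

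Complex IV, cytochrome c oxidase, had 2 of 17 members that rose with KLF11, 4 with A347S and 3 with Δ486, and none that fell. The shares that rose were 11.8%, 23.5% and 17.6%, against 7.56%, 11.5% and 9.07% of all clusters. Of all clusters 9.75%, 16.9% and 13.3% fell, so that few falls would be looked for among 17 genes. COX4I1, the common form of the regulatory subunit 4, read 8.44 and 8.32 with EV, 8.81 and 8.67 with KLF11, 8.80 and 8.76 for A347S, 8.74 and 8.77 for Δ486, and 8.52 and 8.40 for EAPP. The lowest array with KLF11, A347S or Δ486, at 8.67, stood above the highest with EAPP, at 8.52. COX4I1 rose by 0.37, 0.40 and 0.38 (1.29-, 1.32- and 1.30-fold, limma adjusted p = 0.0139, 0.00465 and 0.00913). With KLF11 it no longer passed without EV replicate 2 (adjusted p = 0.106) or KLF11 replicate 1 (0.112), and with Δ486 without EV replicate 2 (0.077). Its isoform COX4I2, known for a role at low oxygen in the lung, read 5.99 to 6.44 and stood at -0.04, 0.15 and 0.12.

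COX7A2 rose with KLF11 and A347S (0.31 and 0.26, limma adjusted p = 0.0369 and 0.0489) and stood at 0.12 with Δ486. With KLF11 it no longer passed without either EV array or KLF11 replicate 1 (adjusted p = 0.127 to 0.245), and with A347S it still passed with 2 of 10 arrays left out. COX7A2L, a paralogue that joins complexes III and IV into supercomplexes, rose with A347S (0.31, adjusted p = 0.0155) and Δ486 (0.26, adjusted p = 0.041) and stood at 0.21 with KLF11. It no longer passed with A347S without any of the EV or A347S arrays (0.0644 to 0.0845) and still passed with Δ486 with 4 of 10 arrays left out. COX6C rose with A347S (0.28, adjusted p = 0.0224, but 0.0696 to 0.121 without any of the EV or A347S arrays) and stood at 0.25 with KLF11 and 0.22 with Δ486.

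COX6A1, the widely expressed form of subunit 6A, lay on different sides of EV with EAPP and with the other constructs. It read 11.48 and 11.38 with EV, 11.78 and 11.62 with KLF11, 11.66 and 11.54 for A347S, 11.84 and 11.72 for Δ486, and 11.13 and 11.21 for EAPP. The EAPP arrays were below and the 6 others above both EV arrays. It rose with Δ486 (0.35, limma adjusted p = 0.0197), stood at 0.27 with KLF11 (adjusted p = 0.0657) and 0.17 with A347S, and was at -0.26 with EAPP (adjusted p = 0.439). Its dimmer cluster gave 0.27, 0.20, 0.33 and -0.22 in the order KLF11, A347S, Δ486 and EAPP and passed with KLF11 (adjusted p = 0.0482) and Δ486 (0.0165). Without EV replicate 2 or Δ486 replicate 1 the brighter cluster no longer passed with Δ486 (adjusted p = 0.125 and 0.111).

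The remaining members of complex IV did not pass. COX7B, named after its values were seen, had the highest differences among them at 0.50, 0.55 and 0.32, with KLF11 arrays at 10.39 and 9.90 and EV arrays at 9.81 and 9.48. COX5A stood at 0.01, -0.08 and 0.00 and COX5B at 0.02, -0.07 and 0.08. COX6B1 stood at 0.09, 0.14 and 0.20 and COX8A at 0.03, -0.08 and 0.00. Of the isoforms known from muscle, testis and other tissues, COX7A1 read 5.44 to 5.71, COX6B2 5.16 to 5.66 and COX8C 5.13 to 5.41. These lay below the array medians of 6.81 to 6.87, and COX6A2, at 7.14 to 7.42, lay above them. None of these 4 isoforms passed, and their highest difference was 0.30, for COX6B2 with A347S. The median of complex IV was 0.09 with KLF11, 0.15 with A347S and Δ486 and -0.02 with EAPP.

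In complex V, the ATP synthase, 0 of 17 members passed by limma's adjusted p with KLF11 or Δ486 and 1 (5.88%) with A347S. Of all clusters 7.56%, 11.5% and 9.07% rose with KLF11, A347S and Δ486. At an unadjusted p under 0.05, 3 members (17.6%) were higher with KLF11 and 4 (23.5%) each with A347S and Δ486, against 12.5%, 16.4% and 15.5% of all clusters. The catalytic subunits stood near EV. ATP5F1B, the beta subunit, read 13.15 and 13.14 with EV, 13.17 and 13.20 with KLF11, 13.22 and 13.21 for A347S, 13.11 and 13.18 for Δ486, and 13.16 and 13.09 for EAPP. Its differences were 0.05, 0.07, -0.00 and -0.01, and the 95% interval with KLF11 was -0.11 to 0.20. ATP5F1A, the alpha subunit, stood at 0.05, 0.03 and 0.00 with KLF11, A347S and Δ486. The genes of subunit c, which forms the rotor ring, stood at 0.15, 0.02 and 0.13 (ATP5MC1), 0.03, -0.05 and 0.05 (ATP5MC2) and -0.05, -0.07 and -0.02 (ATP5MC3).

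The member that rose was ATP5PO, a subunit of the peripheral stalk also known as the oligomycin sensitivity conferring protein. It read 11.13 and 11.08 with EV, 11.42 and 11.24 with KLF11, 11.36 and 11.40 for A347S, 11.40 and 11.29 for Δ486, and 11.04 and 11.09 for EAPP. It rose with A347S (0.27, limma adjusted p = 0.0362) and stood at 0.22 with KLF11 and 0.24 with Δ486 (adjusted p = 0.101 and 0.0684). It no longer passed without any of the EV or A347S arrays (adjusted p = 0.0869 to 0.17). The other stalk genes ATP5PF (0.24, 0.25 and 0.18) and ATP5PB (0.15, 0.21 and 0.28), and the small membrane subunits ATP5MK (0.23, 0.22 and 0.21) and ATP5MJ (0.16, 0.14 and 0.07), did not pass. The median of complex V was 0.10 with KLF11, 0.03 with A347S, 0.06 with Δ486 and -0.01 with EAPP. After median centring of the arrays those with A347S and Δ486 were -0.02 and -0.01. Centring also put the medians of all clusters at -0.04 and -0.05 with these constructs. The upper ends of the 95% intervals of the 17 members with KLF11, each taken alone, reached up to 1.35-fold.

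**Figure D3:**
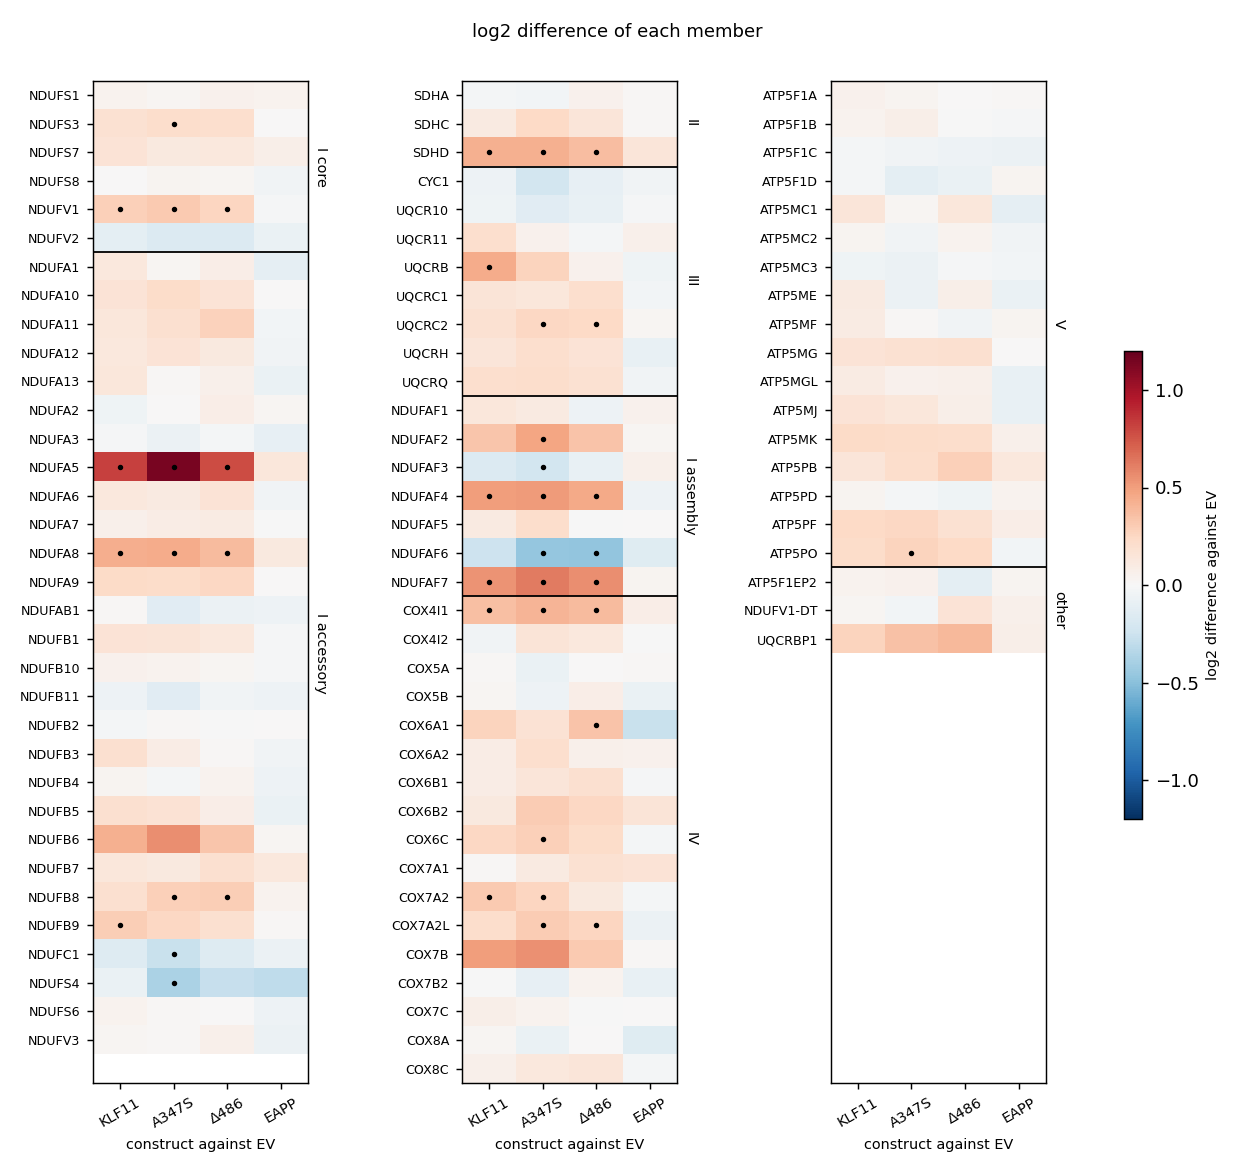
Log2 difference from EV of all 89 members (rows) with KLF11, A347S, Δ486 and EAPP (columns), in blocks for the core and accessory subunits and assembly factors of complex I, complexes II to V and the 3 other transcripts. Red is higher and blue lower than EV, and a dot marks an adjusted p under 0.05. The 7 genes with dots in 3 columns are NDUFV1, NDUFA5, NDUFA8, NDUFAF4, NDUFAF7, SDHD and COX4I1, and the EAPP column has no dot.

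The mutants were next compared with wild type KLF11 directly, since a difference between constructs needs a test of its own. No member passed for A347S or Δ486, where no cluster of the array passed either (0% of 20961). At an unadjusted p under 0.05, A347S was above KLF11 for NDUFA5 and below it for NDUFS4, where 6.08% of all clusters were above and 8.32% below. Δ486 was below KLF11 for UQCRB and UQCR11 and above it for 0 members, beside 3.76% and 6.78% of all clusters. NDUFA5 was 0.31 higher with A347S than with KLF11 (95% interval 0.07 to 0.56, limma adjusted p = 0.257), and NDUFS4 was at -0.30 (-0.56 to -0.04, adjusted p = 0.292). UQCRB stood at -0.39 with Δ486 against KLF11 (-0.68 to -0.10, adjusted p = 0.398).

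For the 7 members that rose with all 3 constructs, the intervals bound how far a mutant could differ. NDUFA5 with A347S is given above, and with Δ486 it stood at -0.04 of KLF11 (-0.29 to 0.21). NDUFV1 stood at 0.02 with A347S (-0.13 to 0.18) and -0.03 with Δ486 (-0.18 to 0.12). NDUFAF4 with A347S stood at 0.01 (-0.16 to 0.18) and with Δ486 at -0.05 (-0.22 to 0.12). NDUFAF7 stood at 0.09 (-0.08 to 0.26) and 0.02 (-0.15 to 0.19), and COX4I1 at 0.04 (-0.15 to 0.22) and 0.01 (-0.17 to 0.20). NDUFA8 stood at 0.00 (-0.17 to 0.17) and -0.06 (-0.23 to 0.10), and SDHD at -0.00 (-0.23 to 0.23) and -0.05 (-0.28 to 0.18). Apart from NDUFA5 with A347S these intervals include 0, which does not show that the constructs act alike.

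EAPP differed from KLF11 for 9 members, all lower with EAPP, where 5.86% of all clusters were lower and 4.89% higher. Of these, NDUFA5 was called, at -0.68 (1.61-fold lower, 95% interval -0.93 to -0.44, limma adjusted p = 0.00478), where 2.51% of all clusters were. NDUFAF4 fell by 0.56 relative to KLF11 (adjusted p = 0.00231), COX6A1 by 0.53 (adjusted p = 0.00559), NDUFAF7 by 0.50 (adjusted p = 0.00366) and UQCRB by 0.49 (adjusted p = 0.0393). COX7A2, NDUFA8, NDUFV1 and COX7A2L were 0.33, 0.32, 0.30 and 0.29 lower. SDHD (-0.28, adjusted p = 0.118) and COX4I1 (-0.28, adjusted p = 0.0574) did not pass. Without KLF11 replicate 1, 3 members were lower, and without either EAPP array, 4, while 1 or 2 members were called in each fit with an array left out. The median over the 89 members was -0.11, against 0.03 for all clusters.

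**Figure D4:**
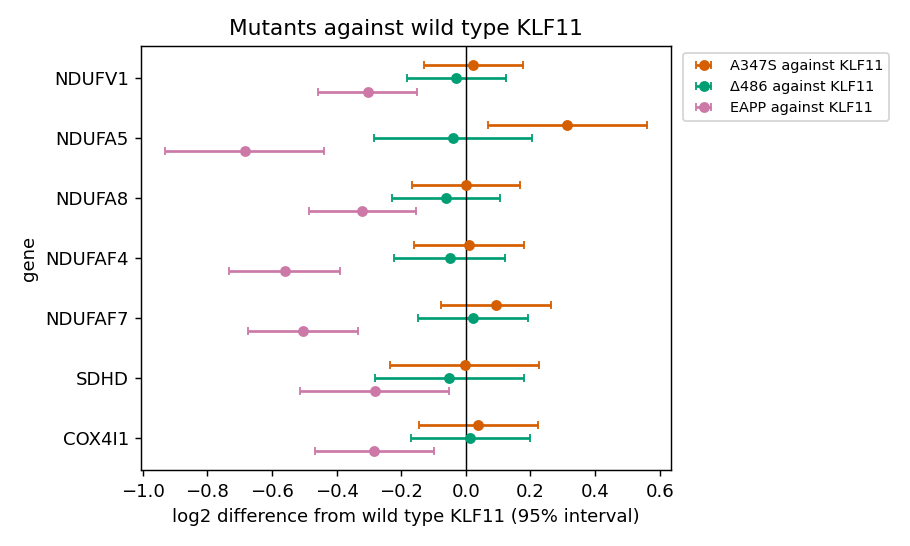
Log2 difference of A347S, Δ486 and EAPP from wild type KLF11 (horizontal axis) for the 7 members that rose with KLF11, A347S and Δ486. Points are estimates and bars 95% intervals of the limma fit over 10 arrays. The 7 were chosen by their values against EV, from the same KLF11 arrays, which by itself favours EAPP values below KLF11. All EAPP intervals lie below 0, and those of A347S and Δ486 include 0 except that of NDUFA5 with A347S, from 0.07 to 0.56.

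Genes that assemble, feed or regulate the chain were read from the same fit. Of 49 further assembly factors, 42 were measured, and 6 rose and 2 fell with KLF11 (14.3% and 4.76%, against 7.56% and 9.75% of all clusters), 6 and 7 with A347S (14.3% and 16.7%, against 11.5% and 16.9%), and 3 and 6 with Δ486 (7.14% and 14.3%, against 9.07% and 13.3%). DMAC2, a factor of complex I assembly, fell by 0.70, 0.86 and 0.68 (limma adjusted p = 0.000544, 6.4e-05 and 0.000394) and stood at 0.06 with EAPP. COX15, which makes the haem a of complex IV, rose by 0.44, 0.45 and 0.40, and SDHAF3, which serves the iron-sulphur subunit of complex II, by 0.56, 0.50 and 0.36. The median of this list was 0.03 with KLF11, 0.01 with A347S and -0.03 with Δ486.

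Of 15 genes of electron carriers and ubiquinone synthesis, 1 rose and 1 fell with KLF11 (6.67% each), 2 and 3 with A347S (13.3% and 20%), and 1 and 2 with Δ486 (6.67% and 13.3%), beside the same shares of all clusters as above. HCCS, which attaches haem to cytochromes c and c1, rose by 0.38, 0.42 and 0.31, while COQ10A, a ubiquinone-binding protein, fell by 0.43, 0.72 and 0.47. COQ2, which joins the ring and tail of ubiquinone, fell with A347S and Δ486 (-0.36 and -0.27) and stood at -0.22 with KLF11.

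Of the 8 other genes that pass electrons to ubiquinone, 4 fell and 1 rose with KLF11 and A347S, and 3 fell and 1 rose with Δ486. The share that fell was 50%, 50% and 37.5%, against 9.75%, 16.9% and 13.3% of all clusters, and the share that rose 12.5% with each, against 7.56%, 11.5% and 9.07%, with medians of -0.23, -0.27 and -0.22. GPD2, the mitochondrial glycerol-3-phosphate dehydrogenase, read 8.83 and 8.83 with EV, 8.41 and 8.38 with KLF11, 8.13 and 8.15 for A347S, 8.38 and 8.31 for Δ486, and 8.73 and 8.64 for EAPP, and fell by 0.44, 0.69 and 0.48. SQOR, which oxidizes sulphide, fell by 0.28, 0.48 and 0.43, and CHDH, choline dehydrogenase, by 0.43, 0.71 and 0.41. ETFDH, the ubiquinone reductase of fatty acid and amino acid oxidation, was the one that rose, by 0.49, 0.65 and 0.60, and is named after its values were seen. None passed with EAPP.

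Of 20 genes that transcribe, replicate or regulate the chain, 1 rose with KLF11 (5%), 4 rose and 1 fell with A347S (20% and 5%), and 3 rose with Δ486 (15%), where 7.56%, 11.5% and 9.07% of all clusters rose. TFB2M, the transcription initiation factor of mitochondrial DNA, read 8.75 and 8.70 with EV, 9.77 and 9.59 with KLF11, 9.86 and 9.88 for A347S, 9.79 and 9.84 for Δ486, and 8.72 and 8.78 for EAPP. Its rises of 0.95, 1.15 and 1.09 (limma adjusted p = 0.000201, 2.7e-05 and 8.6e-05) were called with all 3. TWNK, the mitochondrial helicase, stood at 0.26, 0.33 and 0.27 and ATP5IF1, the inhibitor of the ATP synthase, at 0.27, 0.36 and 0.32, and both passed with A347S and Δ486. Over the whole list the medians were 0.02, 0.08, 0.04 and -0.02 with KLF11, A347S, Δ486 and EAPP.

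**Figure D5:**
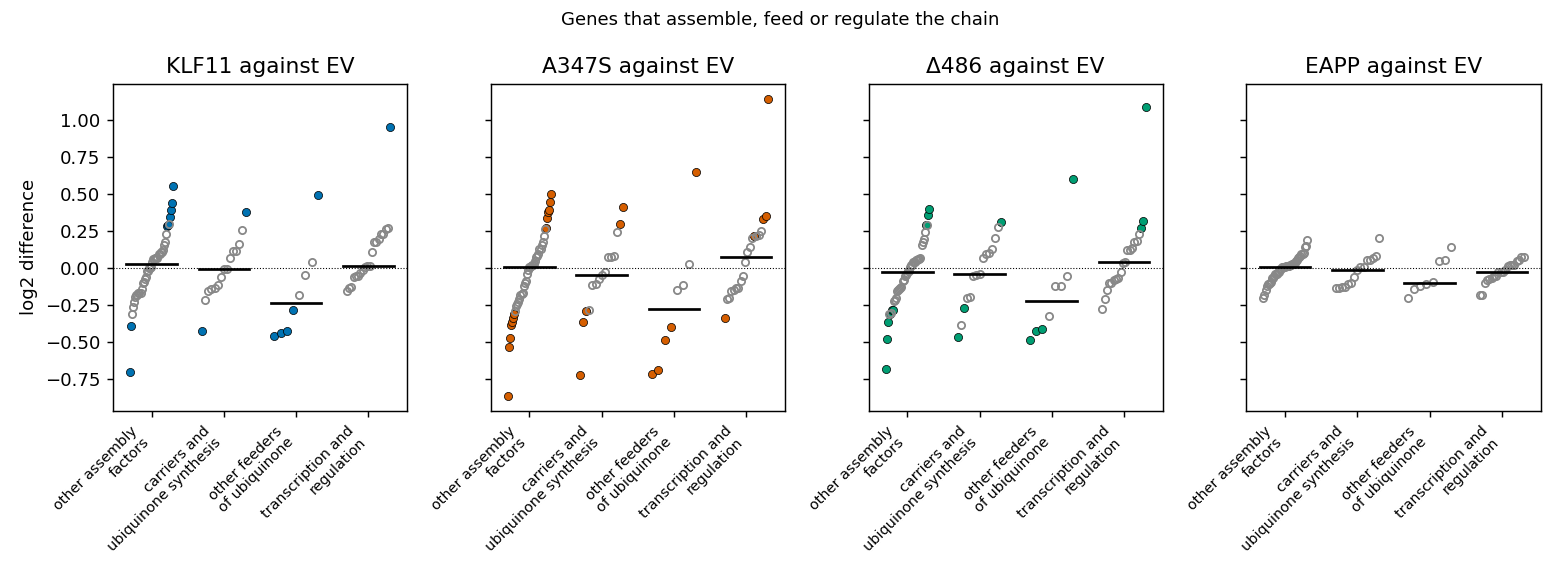
Log2 difference from EV (vertical axis) of further assembly factors, carriers and ubiquinone synthesis, other feeders of ubiquinone, and transcription and regulation, for each construct. Filled points passed an adjusted p under 0.05, bars are medians and the dotted line is 0. TFB2M stands highest at 0.95, 1.15 and 1.09, the feeders have medians of -0.23, -0.27 and -0.22, and no EAPP point is filled.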

How the data were processed

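Expression was measured on 10 Human Gene 1.0 ST arrays, 2 for each of the 5 groups (EV, KLF11, A347S, Δ486, EAPP), grouped by the transduction given in the sample labels. The authors subtracted background and normalized intensities by Robust Multiarray Analysis, and deposited 1 log2 value for each transcript cluster and array. The processing notes name Partek 6.6. The annotation's build was not given in the sources used here, and clusters were not placed on the genome. The number of arrays limits the precision, and every column was mapped to a sample (0 were left out).

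Clusters without a symbol (7908 of 28869) were left out. Of the 20961 tested, 19229 carry 1 symbol, and 19198 of these matched a RefSeq gene number, with 0 renamed. A mean per group was fitted with limma 3.58.1 in R 4.3.3 (5 residual degrees of freedom, 4.54 added by moderation), and p-values were adjusted by Benjamini-Hochberg over all clusters within each comparison. The mutants were also set against KLF11. Members were read from this fit, with no test over the list. The step was tested on simulated data.

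The members and gene lists were chosen with earlier results of these data known. The genes named are every called member, the 3 members with the smallest p per complex and construct, the core and catalytic subunits and the isoform pairs, and 3 genes of each other list, apart from those said to be named later. Alternatives covered the threshold, the test and its moderation, the scaling of the arrays, dim clusters (the dimmest 20%), clusters without a symbol, which cluster stood for a gene, the replicate number as a block, and fits that dropped 1 array. In these the lone array of a group is assumed to vary like the others. Promoter sequences are from RefSeq (GRCh38.p14), joined to the members by gene number, and those printed were looked up by symbol. Python 3.11.15 and matplotlib 3.10.9 drew the figures.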

Additional observations from a re-analysis of the deposited data

How the results depend on the processing

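No difference of a named member turned its direction while past the threshold under any of the 22 alternatives. Of 40 passing differences of members named by the rule, 12 were kept with each of the 10 arrays left out in turn (NDUFA5, NDUFAF4 and NDUFAF7 with KLF11, A347S and Δ486, NDUFA8 with KLF11 and A347S, and COX4I1 with A347S), and 5 were kept with at most 2 of 10 left out. The causes of the changes below were not tested.

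Members that rose numbered 10 with KLF11, 15 with A347S and 11 with Δ486 in the reported fit. With trend and robust moderation they were 22, 25 and 25. With limma on the 2 groups compared, KLF11 gave 6 and Δ486 gave 6, and 2 fell with A347S and 0 with Δ486. Without moderation 0 fell with Δ486. The plain test of 2 arrays against 2 gave 0 called, 0 higher and 0 lower after adjustment with KLF11, A347S and Δ486, and 11, 25 and 22 higher and 1, 3 and 1 lower at an unadjusted p under 0.05.

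Cyclic loess gave 4 called, 25 higher and 1 lower with A347S and 2 called and 22 higher with Δ486. Quantile scaling gave 4 called, 25 higher and 2 lower with A347S and 2 called and 23 higher with Δ486. Median centring gave 1 called with A347S, 5 higher with Δ486 and a median over all members of 0.0119 with Δ486 (all clusters -0.05). Leaving out the dimmest 20% of clusters, which dropped 1 member, gave 17 higher with Δ486, and testing the clusters without a symbol gave 2 lower with A347S. With no fold threshold 10, 19 and 12 members were called with KLF11, A347S and Δ486, and at an absolute log2 difference of at least 1.5 none was (0, 0 and 0).

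With 1 array left out, called members ranged from 1 to 3 with KLF11, 1 to 2 with A347S and 1 to 3 with Δ486, members that rose from 4 to 10, 6 to 16 and 5 to 12, and members that fell from 0 to 4 with A347S and 0 to 2 with Δ486. The medians of all members ranged from 0.07 to 0.16, 0.09 to 0.13, 0.0565 to 0.16 and, with EAPP, from -0.04 to 0.02.

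Over all clusters, the deviations of samples with the same replicate number were compared between groups. For 10 pairs of groups the correlation of their deviations was -0.35 to 0.15, and 1 was over 0.1. The lowest was that of Δ486 and EAPP, where samples with unlike replicate numbers deviated together. A block on the replicate number does not cover this, and its part in the results was not tested. The correlation was not computed over the members alone. Among the members, replicate 1 read above replicate 2 for 79.8% with EV, 84.3% with KLF11 and 39.3% to 51.7% with the mutants. With the replicate block 9, 13 and 10 members rose with KLF11, A347S and Δ486 and 0, 3 and 1 fell. The block moved no count of members called or past the threshold against EV by over 1.5 times.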
